A study of Homo sapiens with 12 samples.

Results

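RNA-seq of DU-145 cells with an inducible hairpin against MUC1 was analysed, comparing doxycycline (DOX) with vehicle. All libraries of that line were taken, which are 6 of the 12 libraries in the series. DU-145 is an androgen-independent prostate cancer line established from a metastasis, and it is known for loss of functional RB1. All 6 cultures carried the same tetracycline-inducible short hairpin RNA (shRNA) against MUC1 in a lentiviral vector with puromycin selection, so the vehicle cultures had the hairpin construct too, not induced. Groups of 3 libraries received either vehicle (0.1% DMSO) or DOX at 500 ng/ml for a period of 7 days. The sources differ on the medium. The labels give phenol red-free medium with charcoal-stripped serum, which is depleted of steroid hormones, and the methods of the study give standard serum for DU-145 cells. The labels call the groups shCTL and shMUC1, whereas the study describes vehicle and DOX in tet-MUC1shRNA cells, and the names of the study are used here. A single hairpin in a selected pool of cells was used. DU-145 cells with a control hairpin and DOX were not analysed here, so effects of DOX, of induced hairpin expression and of the loss of MUC1 cannot be told apart. The labels do not say whether the 3 libraries of a group came from separate cultures, and the p-values measure only the spread between these libraries.

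Each library held between 10423437 and 13544153 counts on genes. The first principal component of log2 CPM (read counts scaled to a common library size) held 71.1% of the variance and separated the groups, with the vehicle libraries between -34.1 and -30.1 and the DOX libraries between 30.1 and 35.0. Counts on mitochondrial genes made up 6.09% to 8.90% of the vehicle libraries and 5.84% to 7.62% of the DOX libraries, ranges that overlap. The 5 markers of simple epithelium that were listed (KRT8, KRT18, KRT19, EPCAM and CDH1) were all expressed, with a summed level of 1003 to 1077 CPM with vehicle. Of 10 markers of luminal prostate cells, 7 had at most 3 counts in each library, among them KLK3 and TMPRSS2. The 5 leukocyte markers summed to at most 0.876 CPM, the 5 endothelial markers to at most 0.887 CPM and the 5 fibroblast markers to at most 4.55 CPM in any library. PTPRC, CD3E and ITGAM (leukocyte), COL1A2, DCN and LUM (fibroblast), and VWF and KDR (endothelial) did not exceed 3 counts in a library.

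MUC1 encodes a transmembrane mucin of the apical surface of epithelial cells, which is cleaved into an N-terminal mucin subunit and a C-terminal subunit (MUC1-C) with the transmembrane and cytoplasmic domains. The C-terminal part takes part in growth factor signalling and can act on gene expression. The MUC1 gene lies on the minus strand of chromosome 1 of GRCh38, from 155185824 to 155192916. It had 74, 60 and 59 counts in the vehicle libraries and 3, 3 and 3 in the DOX libraries. In CPM normalised by the trimmed mean of M values (TMM), this was 5.37 ± 0.573 CPM with vehicle and 0.248 ± 0.0236 CPM with DOX (SD, n = 3 each). All DOX libraries were at the floor of 3 counts and all vehicle libraries were far above it. The summed counts gave a level 21.7-fold higher with vehicle, with a 95% interval of 11.2 to 48.2 that covers counting error only (exact conditional binomial). Reads were not tagged as single molecules, and in bulk libraries fewer cells with a transcript and less transcript per cell cannot be told apart. On the log2 scale, edgeR fitted a fold change of -4.39 with a standard error of 0.31 (adjusted p = 1.37e-09, quasi-likelihood test). Values after ± on the log2 scale are such standard errors throughout. Other mucin genes were mostly too low to test, and 12 of 17 listed mucins and mucin-like genes did not reach 10 counts in 3 libraries. Among the 5 that did, MUC3A (-1.70) and MCAM (-0.88), which encodes the adhesion molecule CD146, fell along with MUC1. MUC16, which encodes the CA125 antigen, rose on the log2 scale by 1.47 from low levels of 0.612, 0.476 and 0.478 CPM to 1.16, 1.92 and 1.26 CPM.

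The response covered a large part of the expressed genes, but most of the changes were small. A minimum of 10 counts in 3 or more of the 6 libraries left 13644 genes. Of these, 3583 (26.3%) rose and 3450 (25.3%) fell with DOX at an adjusted p below 0.05, which is the rule for a called gene throughout. Together these were 51.5% of the genes. Counts of called members in the gene lists below are to be read beside these shares. The change was under 1.5-fold for 4262 of the called genes (60.6%). A 2-fold change or more was reached by 410 genes that rose (3.00% of those tested) and 577 that fell (4.23%), and a 4-fold change or more by 50 and 67. The median log2 fold change of all genes was 0.001 and the median standard error was 0.101. Genes between 1 and 10 CPM more often fell (960) than rose (536), and genes over 100 CPM more often rose (924) than fell (586). Long noncoding RNAs numbered 1026, of which 110 rose and 209 fell. Among protein-coding genes, the fifth with the shortest summed exons had a median log2 fold change of 0.09, and the fifth with the longest had -0.03. With all 12 libraries of both cell lines in a single fit, 2092 genes were higher and 2168 were lower. Of 234 called genes named here, 64 kept their direction but were no longer called in that fit, among them EGR1, ZEB2, SNAI2, LAMB3, UPP1, SAT1, TGM2, GPRC5A, HKDC1, TNS3 and MUC16.

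**Figure D1:**
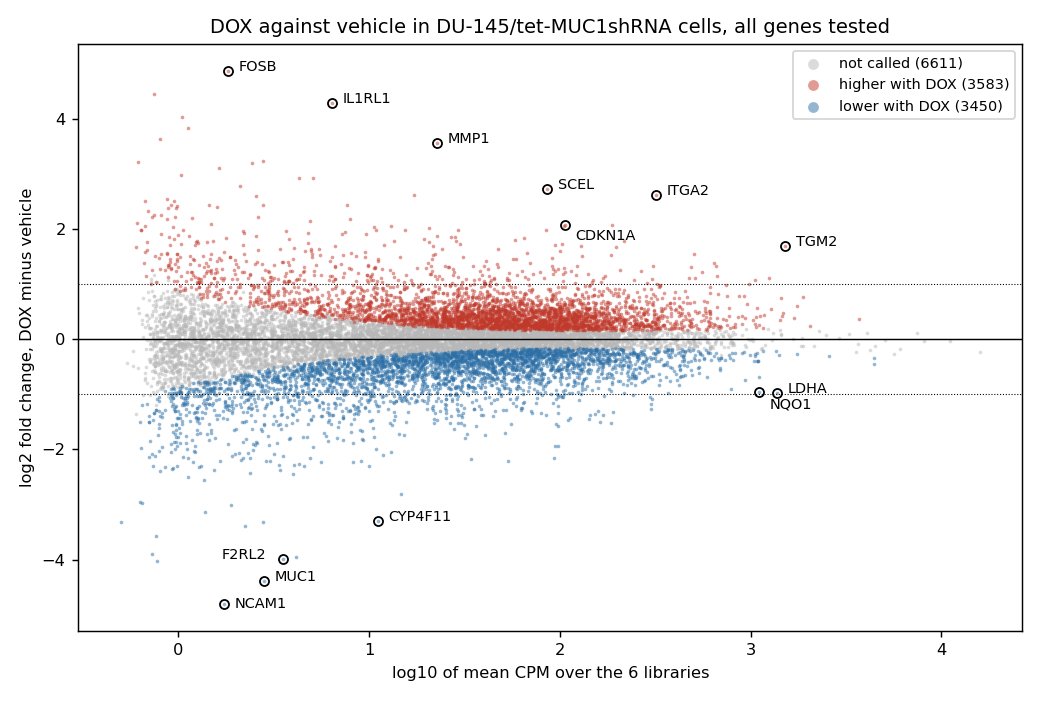
Log2 fold change of DOX over vehicle (vertical axis) against the log10 of the mean CPM over the 6 DU-145 libraries (horizontal axis) for the 13644 genes tested, with called genes in red (3583 higher) and blue (3450 lower). Dotted lines mark a 2-fold change. Most called genes lie within these lines, and MUC1 and NCAM1 are the labelled genes that fell the most.

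The genes that rose the most included a cytokine receptor, a collagenase, an envelope protein and an integrin. IL1RL1, the receptor for interleukin 33, went from 0.535, 1.14 and 0.239 CPM with vehicle to 14.1, 12 and 10.2 CPM with DOX, a log2 fold change of 4.28 ± 0.28 with an adjusted p of 3.17e-10. MMP1, the interstitial collagenase, measured 3.52, 4.09 and 2.95 CPM with vehicle and 45.5, 38.3 and 41.1 CPM with DOX (3.57 on the log2 scale). The lowest DOX library was far above the highest vehicle library for both genes, but only genes whose groups did not overlap were ranked by fold change. Their separation is therefore no separate support. IL1RL1 also passed the filter only through its DOX libraries, so its adjusted p does not test the change. SCEL, which encodes the cornified envelope protein sciellin, had the smallest p of all genes that rose. Its level was 24.8, 19.7 and 22.2 CPM with vehicle and 151, 149 and 145 CPM with DOX, a log2 fold change of 2.73 ± 0.08 with an adjusted p of 3.26e-14. ITGA2, the integrin subunit that pairs with ITGB1 to bind collagen, rose from 94.3, 77.5 and 96 CPM to 608, 534 and 500.5 CPM (2.61). The spread within each group was small beside these differences. The orphan nuclear receptor NR4A2 (2.62), the survival gene BCL2A1 (2.92), the dynein intermediate chain DYNC1I1 (2.92), the gastrokine GKN2 (3.23), the lipase LIPH (2.43) and GOLT1A (2.18) rose as well. They complete the 10 largest rises on the log2 scale among genes with at least 5 CPM and no overlap between groups. By difference in CPM, the largest rise was that of TGM2, which encodes tissue transglutaminase, from 712 ± 40.7 CPM to 2309.7 ± 149 CPM (SD, n = 3 each). GPRC5A, an orphan receptor induced by retinoic acid, was also among the 5 largest rises by that measure (1.11 on the log2 scale).

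FOSB, which encodes a subunit of the AP-1 transcription factor, was the only gene with at most 3 counts in each vehicle library and at least 30 in each DOX library. It had 1, 1 and 2 counts with vehicle and 38, 53 and 39 with DOX, a ratio of 32.1 with a 95% counting interval of 12.2 to 120. In the opposite direction, MUC1 and NCAM1 were the 2 genes with at least 30 counts in each vehicle library and at most 3 in each DOX library. NCAM1, a neural cell adhesion molecule and a marker of neuroendocrine tumours, had 33, 32 and 56 counts with vehicle and 2, 0 and 2 with DOX. Its ratio of vehicle over DOX was 30.6, with a counting interval of 11.7 to 114. FOSB and NCAM1 were picked by these same counts and passed the filter only through the group where they were high. Their ratios and intervals describe these counts and do not test the change. Other named genes also passed the filter only through the group where they were high. Among them were GKN2, BCL2A1, MUC16, DLL4, MUC3A, F2RL2, RAB7B, ZEB2, LFNG, MAML2, AKR1C1 and PLAT. Their other group did not reach the count minimum in all its libraries. Their fold changes describe the counts, and their calls do not test the change. MUC1 passed through its vehicle libraries too, but was followed as the target of the hairpin.

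Among genes with at least 5 CPM with vehicle and no overlap between groups, F2RL2 and RAB7B fell the most after MUC1. F2RL2, the thrombin receptor PAR3, had -4.0 on the log2 scale and RAB7B, a small GTPase of late endosomes, had -3.95. CYP4F11, a cytochrome P450 that hydroxylates fatty acids, measured 19.4, 21.3 and 19.5 CPM with vehicle and 1.52, 1.85 and 2.7 CPM with DOX (log2 fold change -3.30 ± 0.17, adjusted p = 1.1e-11). CYP4F genes are close paralogs, and how shared reads were counted is not given in the sources used here. SHISAL1 (-2.82), the scavenger receptor SCARA3 (-2.44), the hexokinase HKDC1 (-2.38), the scaffold IQGAP2 (-2.30) and the helicase DDX60 (-2.30) were also more than 4-fold lower. CYRIB, an inhibitor of RAC1 signalling, measured 147, 144 and 154 CPM with vehicle and 35.5, 39.3 and 42.1 CPM with DOX (log2 fold change -1.93 ± 0.08, adjusted p = 5.58e-13). All DOX libraries were far below the vehicle libraries, which is no separate support in a gene picked for its small p. GLCE, an epimerase of heparan sulfate synthesis (-2.17), the stress kinase MAPKAPK2 (-1.47), the focal adhesion protein TNS3 (-1.53), the ubiquitin-conjugating enzyme UBE2Q2 (-1.74) and the collagen prolyl hydroxylation partner CRTAP (-1.5) were also among the 10 genes that fell with the smallest p.

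**Figure D2:**
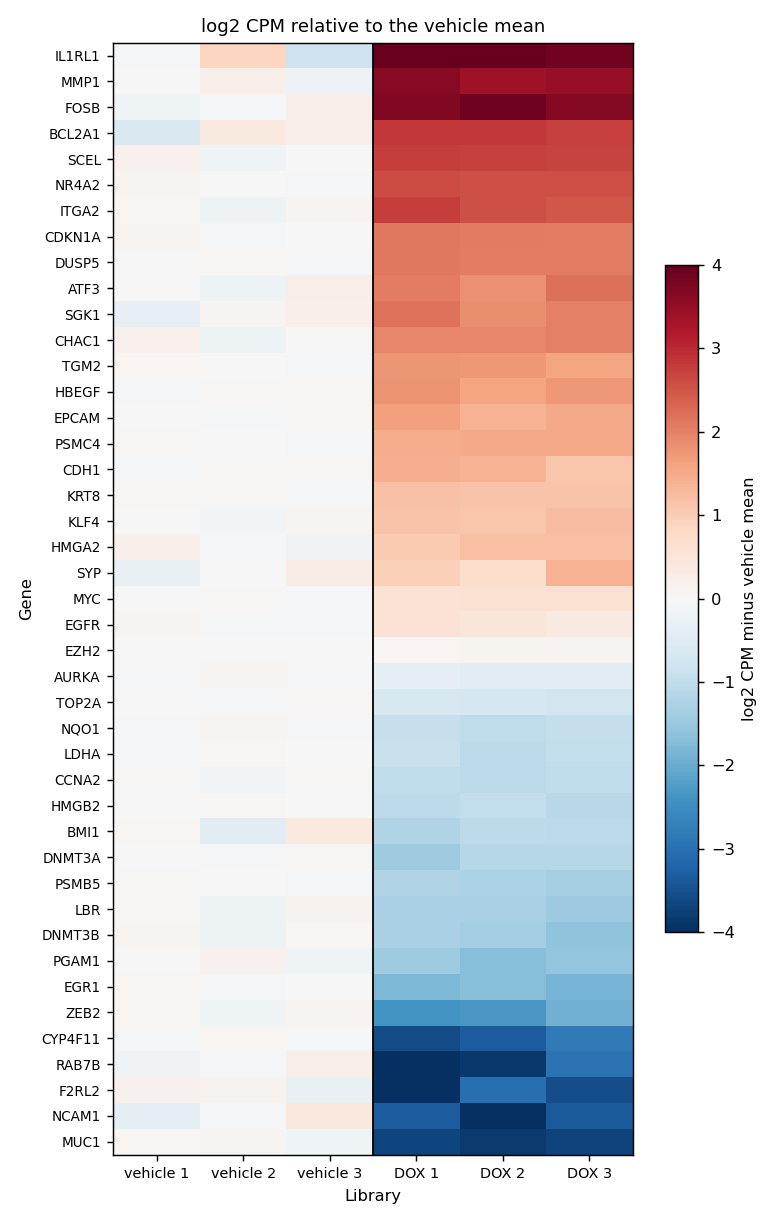
Log2 CPM of 43 named genes (rows) in the 6 DU-145 libraries (columns), relative to each gene's mean over the vehicle libraries, with colours that saturate at -4 and 4. Within each group the libraries have similar colours, from IL1RL1 and MMP1 at the top, which were higher in all DOX libraries, to NCAM1 and MUC1 at the bottom, and EZH2 shows little difference.

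The study followed genes of androgen signalling, neuroendocrine differentiation, pluripotency and epigenetic regulation, which are markers of lineage plasticity in prostate cancer. Of 24 such genes, 16 passed the filter, and 6 rose and 7 fell (3 rose in the fit of all 12 libraries). KLK3, TMPRSS2, POU3F2 (which encodes BRN2), MYCN, SOX2 and POU5F1 were among those that did not pass it, and changes in them were not detectable at this depth. SYP, which encodes the synaptic vesicle protein synaptophysin, rose from 0.841, 1.05 and 1.35 CPM to 2.23, 1.85 and 3.03 CPM (log2 fold change 1.12 ± 0.30, adjusted p = 0.00467), while NCAM1 fell. The chromogranin genes CHGA and CHGB were at 3 counts or fewer in each library. The summed level of 6 neuroendocrine markers was 1.14 to 1.67 CPM with vehicle and 2.37 to 3.12 CPM with DOX, with SYP the only 1 that passed the filter. KLF4, a pluripotency factor that also acts in epithelial differentiation, rose from 6.27, 5.81 and 6.77 CPM to 13.9, 13.7 and 15.1 CPM (1.18). MYC (0.59), the retrotransposon-derived gene PEG10 (0.45) and the growth factor receptor gene EGFR (0.48) rose less. AURKA, the mitotic Aurora A kinase, fell (-0.42). E2F1 was called lower (-0.21), but not without DOX replicate 1 or 3. EZH2, the catalytic subunit of Polycomb repressive complex 2, measured 121, 122 and 121 CPM with vehicle and 129.6, 131 and 132 CPM with DOX, and its log2 fold change of 0.11 did not pass the test (adjusted p = 0.165). RB1 measured -0.18 on the log2 scale (adjusted p = 0.0803) and was called lower only without vehicle replicate 2 or with other scalings (upper-quartile or total counts).

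Few epigenetic regulators changed by 2-fold or more. DNMT3A, a de novo DNA methyltransferase, fell from 35.4, 33.1 and 36.4 CPM to 13, 15.6 and 15.6 CPM (log2 fold change -1.25 ± 0.10, adjusted p = 4.07e-09). DNMT3B fell from 7.8, 6.28 and 7.72 CPM to 2.86, 2.74 and 2.28 CPM (-1.47). The maintenance enzyme DNMT1 measured -0.14 on the log2 scale (adjusted p = 0.0898) and was called lower without vehicle replicate 3 or with the same 2 other scalings. Of 18 genes for DNA methylation and the NuRD complex, 5 rose and 8 fell, with a median of -0.16. Only 2 rose without vehicle replicate 3 or DOX replicate 1, and 5 fell without DOX replicate 3. BMI1, a subunit of Polycomb repressive complex 1, fell from 105, 73.4 and 130.4 CPM to 43.6, 48.2 and 47.3 CPM (-1.16), with a vehicle group that was more spread than the DOX group. Of 27 Polycomb genes, 6 rose (3 in the fit of all 12 libraries) and 7 fell, so that 48.1% were called, beside 51.5% of all genes. The median was -0.09, and -0.03 without vehicle replicate 3. The chromobox gene CBX7 fell (-0.92), and the PRC2 partners PHF1 (0.94) and JARID2 (0.81) rose.

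Genes of mitosis moved together. Entry into mitosis depends on cyclins with the kinase CDK1, chromosome condensation by condensins and topoisomerase II, and attachment of kinetochores to the spindle. All 58 listed mitotic genes were tested and 56 of them fell, beside 25.3% of all genes, and none rose, beside 26.3%. The median log2 fold change was -0.54 (0.001 over all genes). The size of the change was moderate, with 5 members lower by 2-fold or more. These were the kinetochore genes SPC24 (-1.27) and KNL1 (-1.10), the G2 and S phase gene GTSE1 (-1.04), cyclin A2 (CCNA2, -1.04) and the spindle pole protein ASPM (-1.01). CCNB1, the cyclin of mitotic entry, went from 383, 438 and 380.4 CPM to 261, 242 and 269 CPM (log2 fold change -0.64 ± 0.07, adjusted p = 8.47e-07). TOP2A, which encodes topoisomerase II, went from 1383, 1324 and 1404 CPM to 885, 833 and 826 CPM (-0.69). All DOX libraries were below all vehicle libraries for both. The same held for RACGAP1, a listed member that was not called, so this is no separate support. CDK1 (-0.43), PLK1 (-0.49) and the proliferation marker MKI67 (-0.40) fell less. RACGAP1 and KIF4A, chosen here because they were the 2 members not called, had log2 fold changes of -0.14 and -0.04. In the fit of all 12 libraries, 33 of the 58 genes were called lower and none higher.

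Many mitotic genes share a short promoter element, the cell cycle genes homology region (CHR), with the letters TTTGAA, through which the DREAM and MuvB complexes are known to act. Promoter windows of 300 bases (250 before to 50 after the RefSeq start, build GRCh38.p14) matched 49 of the 58 genes, and 33 of them (67.3%) held TTTGAA on either strand. Among the 10334 tested genes with a window, 9.32% held it, and 15.4% of all 27305 windows did. The stretches below are from 5 members that held it near the start, in lower case with TTTGAA in capitals. They were chosen after their values were seen to show where the element lies.
PLK1, chr16:23678830-23678895, plus strand: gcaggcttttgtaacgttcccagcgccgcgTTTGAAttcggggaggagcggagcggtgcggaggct
CCNB2, chr15:59105087-59105152, plus strand: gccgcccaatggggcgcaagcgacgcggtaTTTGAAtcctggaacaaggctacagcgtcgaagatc
CDC20, chr1:43358886-43358951, plus strand: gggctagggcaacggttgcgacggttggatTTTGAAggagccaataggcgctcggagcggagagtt
KIF23, chr15:69414264-69414329, plus strand: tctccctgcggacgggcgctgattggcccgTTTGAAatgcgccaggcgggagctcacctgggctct
MKI67, chr10:128126417-128126482, minus strand: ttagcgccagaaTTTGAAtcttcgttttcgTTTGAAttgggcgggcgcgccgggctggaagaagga
The stretch of MKI67 holds it at 2 places. The element nearest the start began 29 bases before the start in PLK1, CCNB2 and MKI67, 55 before it in KIF23 and 65 before it in CDC20. These genes encode the polo-like kinase, cyclin B2, the Ki-67 antigen, a kinesin of cytokinesis and an activator of the anaphase-promoting complex. Their log2 fold changes were -0.49, -0.72, -0.40, -0.39 and -0.40. The members with and without these letters had similar values. The 33 mitotic genes with TTTGAA had a median log2 fold change of -0.54 with 32 called lower, and the 16 without it had -0.60 with 16 called lower. Outside the mitotic list, 930 tested genes held TTTGAA, and 27% of them rose and 29.5% fell, beside 28.1% and 25.6% of all genes with a window. A CCAAT box (the letters CCAAT, either strand) was in 75.5% of the mitotic windows and in 36.5% of those of tested genes.

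Genes of DNA replication fell less. Of 58 replication genes, which load the MCM helicase at origins, copy the DNA and supply nucleotides, 32 fell and 5 rose, and the median was -0.22. The nuclease and helicase DNA2 (-1.01), the checkpoint mediator CLSPN (-0.84), the kinase activator DBF4 (-0.67), the polymerase subunit POLE2 (-0.62) and the clamp loader RFC3 (-0.61) fell the most. The sliding clamp PCNA (-0.04) and the helicase subunit MCM2 (0.07) did not pass the test. Neither did the ribonucleotide reductase subunit RRM2 (-0.16), which was called lower with DESeq2 and without vehicle replicate 2 or 3 or DOX replicate 1. ORC3, a subunit of the origin recognition complex, was apart from the rest at 0.91, with 51.1, 48.1 and 49.3 CPM in the vehicle libraries and 94.3, 96.2 and 89.7 CPM in the DOX libraries. In the fit of all 12 libraries, 15 of the 58 fell and 2 rose, and 3 rose without vehicle replicate 3. Windows of 49 replication genes held an E2F motif (the letters TTTCCCGC or TTTGGCGC on either strand) in 36.7%, beside 3.74% of the windows of tested genes. The stretches of 3 of those members that fell the most are shown with the motif in capitals.
CLSPN, chr1:35769946-35770013, minus strand: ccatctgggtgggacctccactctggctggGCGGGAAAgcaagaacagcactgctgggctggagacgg
POLE2, chr14:49688182-49688249, minus strand: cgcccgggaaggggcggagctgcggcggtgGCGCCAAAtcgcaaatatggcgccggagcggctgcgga
RFC3, chr13:33818064-33818131, plus strand: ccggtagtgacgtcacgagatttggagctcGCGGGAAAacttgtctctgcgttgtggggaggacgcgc
Over all 386 tested genes with the E2F motif, 26.4% rose and 28.8% fell, near the shares of all genes with a window. Homologous recombination repairs breaks by copying the sister chromatid, and the Fanconi anaemia proteins act at stalled forks. Of its 31 listed genes, 20 fell and 1 rose (median -0.31), led by XRCC2 (-0.99), FANCB (-0.98), the helicase BLM (-0.86) and BRCA1 (-0.78). RBBP8, which encodes the end-resection factor CtIP, was the member that rose (0.23). In the fit of all 12 libraries, 11 of the 31 fell.

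The G1 regulators had no common direction apart from a large rise of CDKN1A. CDKN1A, which encodes the CDK inhibitor p21, measured 44, 38.1 and 39.8 CPM with vehicle and 174, 171 and 167 CPM with DOX (log2 fold change 2.07 ± 0.07, adjusted p = 1.44e-13). The other inhibitors CDKN1B (-0.02) and CDKN2A (0.08) did not pass the test. Of 26 G1 genes tested, 5 rose and 10 fell (5 fell in the fit of all 12 libraries). The RB family members RBL1 (-1.38) and RBL2 (-0.48) and the repressor E2F4 (-0.63) fell, and CCNE1 (0.84), CDC25A (0.71) and CCND3 (0.53) rose.

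**Figure D3:**
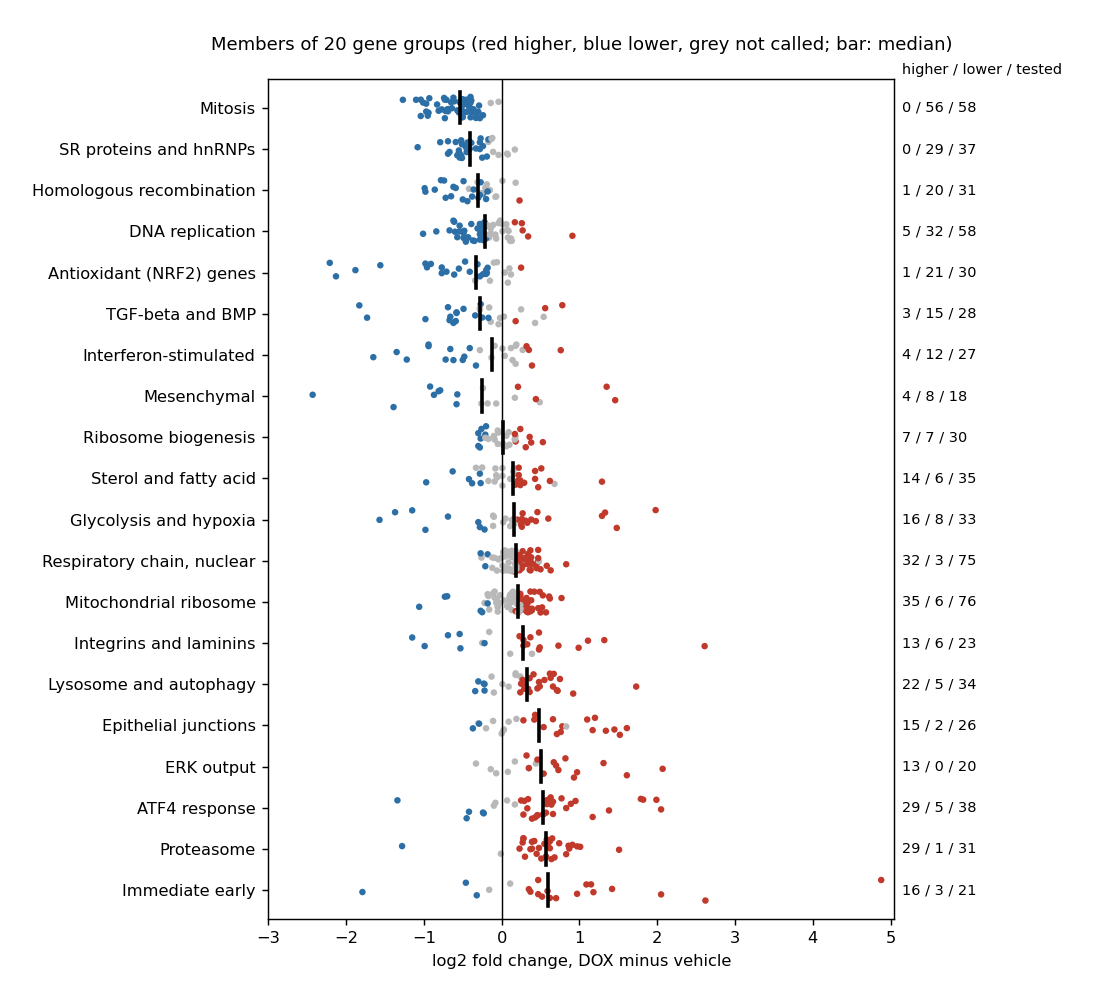
Log2 fold change of DOX over vehicle for each tested member of 20 gene groups, with called members in red or blue, the median as a black bar and the counts called higher, called lower and tested at the right. Mitotic genes lie almost wholly to the left (0 higher, 56 lower, 58 tested), and proteasome genes to the right (29 higher, 1 lower, 31 tested), with single members far from their group.

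Genes of RNA splicing were lower with DOX, and those of nuclear structure had both directions. Of 37 SR proteins and hnRNPs, which bind pre-mRNA and steer splicing, 29 fell and none rose, and the median was -0.41. SRSF1, the founding SR protein, fell from 427, 369 and 446 CPM to 202, 198 and 189 CPM (log2 fold change -1.08 ± 0.08, adjusted p = 1.23e-09). HNRNPDL (-0.79), HNRNPH1 (-0.69) and PTBP3 (-0.69) were next. Of 10 high mobility group genes 6 fell and 4 rose, with 1 higher in the fit of all 12 libraries. The chromatin proteins HMGB2 (-1.06), HMGB1 (-0.49) and HMGB3 (-0.45) fell, while the AT-hook genes HMGA1 (0.98) and HMGA2 (1.17) rose. HMGA1 went from 551, 485 and 459 CPM to 981, 1037 and 927 CPM, and HMGB2 from 100.5, 105 and 102 CPM to 49.2, 51.6 and 47 CPM. Of 16 nuclear envelope genes 6 fell and 5 rose (median -0.12). Only 3 rose with DESeq2, with upper-quartile or total-count scaling, without a filter on low counts or without any 1 library other than vehicle replicate 2, and 2 in the fit of all 12 libraries. The lamin B receptor gene LBR (-1.37), TMPO (-1.18), LMNB1 (-0.47) and LMNB2 (-0.51) fell, and LMNA, which encodes lamins A and C, rose (0.48), as did the torsin-interacting gene TOR1AIP2 (0.39) and the nesprin gene SYNE1 (0.31). LBR measured 224, 191 and 243 CPM with vehicle and 88, 88.6 and 78.9 CPM with DOX. Replication-dependent histone genes, whose mRNAs largely lack poly(A) tails and are poorly sampled by mRNA libraries, had 16 of 61 members tested, of which 9 rose and none fell (median 0.42), with 1 called lower without vehicle replicate 3. H2BC12 went from 27.5, 29.4 and 23.6 CPM to 52.7, 52.5 and 56.7 CPM, and H2BC11 rose by 0.98 on the log2 scale. Several histone genes have near-identical copies, and their counts are uncertain for that reason.

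Output genes of the ERK kinases and immediate early genes were higher with DOX. Growth factor receptors such as EGFR signal through RAS and ERK, and ERK induces its own phosphatases (DUSP genes) and inhibitors (Sprouty genes). Of 20 ERK output genes tested, 13 rose and none fell (median 0.50). DUSP5, a nuclear ERK phosphatase, measured 71, 76.1 and 69 CPM with vehicle and 309, 296 and 299.6 CPM with DOX (log2 fold change 2.07 ± 0.07, adjusted p = 1.15e-13). DUSP14 (1.61), SPRY4 (1.31) and the cytosolic ERK phosphatase DUSP6 (0.93) rose less. In the fit of all 12 libraries, 4 of the 20 were called higher. Among ligands of the EGF receptor, HBEGF went from 41.4, 44.9 and 45.5 CPM to 153, 130.5 and 146 CPM (1.70), and AREG (1.12) and EREG (0.67) rose. Among the receptors EGFR rose, and ERBB2 (-0.73) and ERBB3 (-0.38) fell. The founding ligand EGF (-0.94) fell.

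Immediate early genes are transcribed within minutes of a stimulus, yet 16 of the 21 tested were higher at this late time and 3 were lower (median 0.59). Beside FOSB, the AP-1 and stress factor ATF3 went from 4.89, 4.28 and 5.81 CPM to 21.2, 18.2 and 23.3 CPM (2.05), and NR4A2 from 5.2, 4.66 and 4.46 CPM to 30.1, 29.4 and 29 CPM. NR4A1 (1.42), FOSL1 (0.62) and JUN (0.47) rose too. EGR1, a zinc-finger factor that is usually induced along with these genes, fell from 52.4, 46.6 and 49 CPM to 14.2, 14.9 and 13.6 CPM (log2 fold change -1.79 ± 0.09, adjusted p = 1.03e-11). FOS was not called (-0.16), and JUND fell (-0.46). Of 13 Kruppel-like factors tested, 5 rose, with KLF4 and KLF2 (0.70) the largest, and KLF10 fell (-0.32), with 2 higher and none lower in the fit of all 12 libraries. Genes with an AP-1 motif in the promoter window (the letters TGANTCA, either strand) numbered 459, and 33.1% of them rose and 20.7% fell, beside 28.1% and 25.6% of all genes with a window. This shift was not particular to AP-1. Of 1596 genes with the core of the antioxidant response element (the letters TGACNNNGC, either strand), 32.0% rose and 22.7% fell.

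Epithelial genes rose. The 5 simple epithelium markers were all higher by 2-fold or more, beside 3.00% of all genes, and their summed level went from 1003 to 1077 CPM with vehicle to 2270.3 to 2410 CPM with DOX. EPCAM, an epithelial adhesion molecule, measured 97.1, 91.2 and 99 CPM with vehicle and 299, 251 and 276 CPM with DOX (log2 fold change 1.52 ± 0.08, adjusted p = 1.03e-11). CDH1, which encodes E-cadherin of the adherens junction, went from 21.6, 23.4 and 23.3 CPM to 63.3, 60.0 and 49.3 CPM (1.34). KRT8 (1.14), KRT18 (1.12) and KRT19 (1.02), the keratins of simple epithelia, rose to a similar degree. Of 26 epithelial junction genes and regulators tested, 15 rose and 2 fell (median 0.48), 1 of the latter no longer with DESeq2 or without vehicle replicate 1 or 3 or DOX replicate 1 or 3. The tight junction genes CLDN7 (1.61) and MARVELD3 (1.45) and the splicing regulator ESRP1 (1.20) rose as well, CLDN7 by the most in the list, and the desmosomal cadherin DSG2 fell (-0.29). Of 17 keratin and cornified envelope genes tested, 8 rose and 2 fell, with 2 higher and none lower in the fit of all 12 libraries.

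Mesenchymal genes had both directions. Of 18 tested, 8 fell and 4 rose (median -0.25), beside 25.3% and 26.3% of all genes. ZEB2, a repressor of E-cadherin, fell from 4.2, 3.52 and 4.3 CPM to 0.625, 0.665 and 0.927 CPM (log2 fold change -2.43 ± 0.27, adjusted p = 5.17e-07). ZEB2 passed the filter only through its vehicle libraries, so its adjusted p does not test the change. ZEB1 (-0.81), the tropomyosins TPM1 (-0.92) and TPM2 (-1.39), vimentin (VIM, -0.57) and fibronectin (FN1, -0.58) fell. SNAI2, another repressor of E-cadherin, rose from 2.22, 2.66 and 3.98 CPM to 6.97, 7.98 and 7.75 CPM (1.35), and the collagen crosslinking enzyme LOX rose by 1.46. CDH2, which encodes N-cadherin, had 0 counts in all 6 libraries, where up to 3 counts would be within the counting floor. In the fit of all 12 libraries, 4 of the 18 were called lower and 0 higher.

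Genes of cell adhesion and matrix breakdown also changed. Of 23 integrin and laminin genes tested, 13 rose and 6 fell (median 0.28), with 3 of each in the fit of all 12 libraries. LAMB3, which encodes a laminin subunit of epithelial basement membranes, went from 309, 298 and 289.8 CPM to 677, 660.5 and 598 CPM (1.11). ITGB3 (-1.15), LAMC3 (-0.99) and LAMB2 (-0.69) fell. Among 16 protease and inhibitor genes, 7 rose (3 in the fit of all 12 libraries), with MMP1, PLAUR, which encodes the urokinase receptor (1.59), and the membrane-bound metalloproteinase MMP14 (1.32) in front. The tissue plasminogen activator gene PLAT fell (-1.85), and its relative PLAU was not called (0.12).

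Of 28 tested genes of the TGF-beta and BMP pathways, 15 fell and 3 rose (median -0.27), with 8 lower and none higher in the fit of all 12 libraries. The fall was largest in feedback and target genes. ID2, an inhibitor of helix-loop-helix factors that BMPs induce, went from 51.1, 44.7 and 54 CPM to 14.9, 12.6 and 18 CPM (log2 fold change -1.73 ± 0.11, adjusted p = 3.17e-10). The inhibitory SMAD6 (-1.83) and the feedback gene PMEPA1 (-0.98) fell. The receptor TGFBR2 (0.78) rose, and SMAD7 was not called (-0.14). The other 2 called rises were those of the activin antagonist FST (0.56) and of the ligand TGFB1 (0.18), and only 1 member was called higher with DESeq2, with upper-quartile or total-count scaling, or without vehicle replicate 1 or DOX replicate 1. In the Notch pathway, 3 of 15 tested genes rose and 7 fell. The ligands JAG1 (1.36) and DLL4 (2.19) and the HES family gene HES4 (1.16) rose. The receptor NOTCH3 (-1.24), the target HES1 (-0.98), the coactivator MAML2 (-1.84) and the glycosyltransferase LFNG (-3.57) fell, the last from 0.994, 1.43 and 1.83 CPM to 0.0893, 0.0739 and 0.169 CPM. Of 23 YAP and TEAD genes, 7 rose and 9 fell (median -0.02), beside 26.3% and 25.3% of all genes. In the fit of all 12 libraries 1 rose and 5 fell. IGFBP3 was lowest (-1.38), with CCN2 at -0.31 and CCN1 at 0.50.

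Genes of the proteasome rose nearly throughout. The proteasome degrades ubiquitin-tagged proteins in a 20S core that carries the catalytic subunits, capped by a 19S regulatory particle that unfolds the substrate. All 31 listed subunits were tested, and 29 rose and 1 fell, beside 26.3% and 25.3% of all genes. The median log2 fold change was 0.57. PSMC4, an ATPase of the 19S particle, measured 69.7, 67.7 and 65.8 CPM with vehicle and 190.2, 196 and 193 CPM with DOX (log2 fold change 1.51 ± 0.07, adjusted p = 2.69e-12). PSMD2 (1.01), PSMB7 (0.97), PSMD13 (0.91) and PSMB3 (0.87) followed. PSMB5, which carries the chymotrypsin-like activity of the core, was the member that fell, from 91.4, 89.6 and 84.5 CPM to 38.2, 36.4 and 35 CPM (log2 fold change -1.28 ± 0.07, adjusted p = 8.38e-11). The groups did not overlap for either gene, in opposite directions, but both were picked by their values and this is no separate support. Leaving out a library moved the median of the list between 0.50 and 0.64. The inducible subunit PSMB9 of the immunoproteasome, which was listed with antigen presentation, fell as well (-0.89).

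ATF4 is a transcription factor translated when eIF2alpha is phosphorylated, and it induces genes for amino acid uptake and synthesis, tRNA charging and cell stress. Of 38 tested ATF4 response genes, 29 rose and 5 fell (median 0.54), and ATF4 itself rose by 0.28. CHAC1, a glutathione-degrading enzyme that is among its most inducible targets, went from 6.96, 5.33 and 6.29 CPM to 24.4, 24.5 and 25.4 CPM (log2 fold change 1.99 ± 0.12, adjusted p = 1.17e-10). ATF3, the leucine sensor SESN2 (1.82), the cysteine synthesis enzyme CTH (1.79), the phosphatase subunit PPP1R15A (1.38), TRIB3 (1.17) and DDIT3 (0.95), which encodes CHOP, rose, and so did asparagine synthetase (ASNS, 0.53). WARS1, the tryptophanyl-tRNA synthetase, went from 107, 105 and 94.1 CPM to 41.7, 39.9 and 38.9 CPM (-1.34). Chaperones of the endoplasmic reticulum changed little by comparison, with 7 of 18 higher and 4 lower (median 0.05). The count of higher members was 4 without DOX replicate 1 and 3 in the fit of all 12 libraries, and that of lower members 2 without DOX replicate 2. HSPA5, which encodes the chaperone BiP, was called higher (0.21), but not without vehicle replicate 1 or 3 or DOX replicate 1 or 3. Of 16 cytosolic heat shock genes tested, 6 rose and 3 fell, with HSPB8 (1.54), HSPA1A (1.05) and BAG3 (0.69) the largest rises. HSPA1A shares most of its sequence with HSPA1B, and its count is uncertain.

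**Figure D4:**
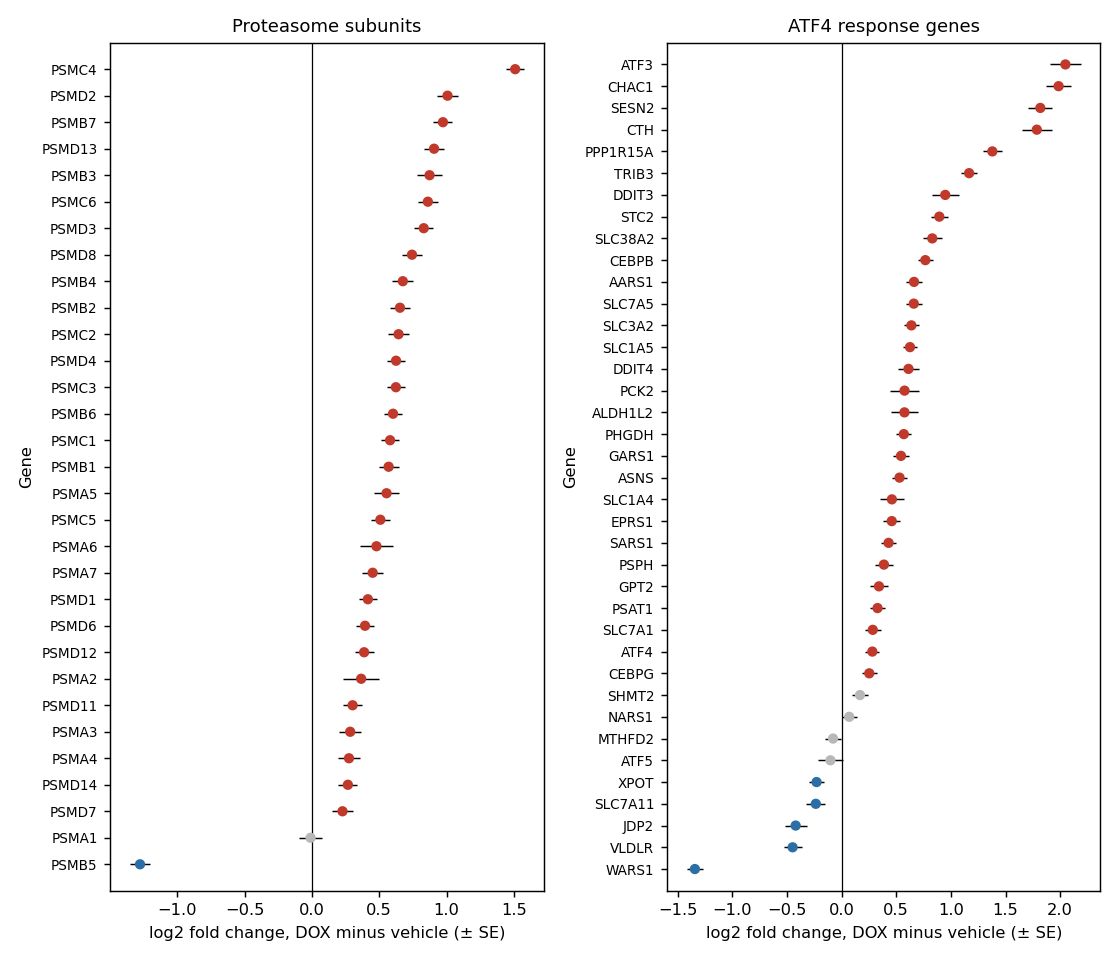
Log2 fold change of DOX over vehicle with its standard error for 31 proteasome subunits (left) and 38 ATF4 response genes (right), each ordered by its value, with called genes in red (higher) or blue (lower) and others in grey. PSMB5 (-1.28) and WARS1 (-1.34) lie far below the other members of their groups.

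Most lysosomal and polyamine genes rose with these groups. Of 34 lysosome and autophagy genes tested, 22 rose and 5 fell (median 0.32), with 3 lower under DESeq2 or without vehicle replicate 2 or DOX replicate 1 or 3. GABARAPL1, which encodes a protein of autophagosome membranes, went from 13.9, 14.2 and 13.6 CPM to 46.6, 46.1 and 45.8 CPM (1.73). The protease CTSD (0.92) and the autophagy receptor SQSTM1 (0.75) rose less, and MAP1LC3B fell (-0.34). All 12 polyamine genes were called, 8 of them higher and 4 lower, the lowest at -1.18 on the log2 scale. The count of higher members was 5 without vehicle replicate 1 and 3 in the fit of all 12 libraries. ODC1, the rate-limiting enzyme of polyamine synthesis, went from 362, 391 and 370.1 CPM to 1032, 838 and 944 CPM (log2 fold change 1.33 ± 0.08, adjusted p = 1.81e-10). SAT1, which starts polyamine breakdown, rose from 41.3, 51 and 51.1 CPM to 164, 145 and 164 CPM (1.73), so that a gene of synthesis and a gene of breakdown both rose. Uridine phosphorylase UPP1, among the 10 smallest p values of the genes that rose, went from 90.5, 99.6 and 91.9 CPM to 297, 281 and 320.1 CPM (1.67).

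Antioxidant genes fell. NRF2, the product of NFE2L2, is released from KEAP1 under oxidative stress and induces detoxifying and glutathione genes. Of 30 tested targets and regulators, 21 fell and 1 rose (median -0.33). NQO1, a quinone reductase and a standard readout of NRF2, went from 1398, 1555 and 1414 CPM to 772, 719 and 754 CPM (log2 fold change -0.96 ± 0.08, adjusted p = 5.94e-09). TRIM16 fell from 48.5, 47.7 and 44.6 CPM to 16.3, 15.7 and 15.8 CPM (-1.56), and TRIM16L fell too (-2.21). TRIM16L is annotated as a pseudogene related to TRIM16, and reads shared by the pair could be split between them. AKR1C1 (-2.13) and AKR1C3 (-1.88), reductases of steroids and carbonyls with close paralogs, HMOX1 (-0.61) and TXNRD1 (-0.31) fell too. NFE2L2, chosen here after its value was seen, also fell (-0.71), as did KEAP1 (-0.91).

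In energy metabolism, genes of glycolysis and the hypoxia response had both directions, with 16 of 33 tested genes higher and 8 lower (median 0.16), and 6 higher in the fit of all 12 libraries. Secreted hypoxia genes rose, among them ADM (1.98), ANGPTL4 (1.48) and VEGFA, an angiogenic factor that went from 165, 173 and 185 CPM to 433, 445 and 437 CPM (1.33). LDHA, which encodes the A subunit of lactate dehydrogenase, fell from 1779.9, 1902 and 1802 CPM to 984, 882 and 914 CPM (log2 fold change -0.98 ± 0.08, adjusted p = 5.45e-09). PGAM1, the glycolytic phosphoglycerate mutase, fell from 142, 164 and 129 CPM to 53.9, 44.5 and 48.8 CPM (-1.57). Other glycolytic genes were called higher, such as PKM (0.38) and PFKP (0.60), so the pathway did not move as a unit.

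Nuclear and mitochondrial genes of respiration did not move together. Of 75 tested nuclear genes of the respiratory chain, 32 rose and 3 fell (median 0.18), beside 26.3% and 25.3% of all genes. Neither this group nor the mitochondrial ribosomal proteins were compared with genes of like level or exon length. Without vehicle replicate 2, 49 rose, with a median of 0.28, and without DOX replicate 2 only 1 fell. NDUFA4 (0.83) and NDUFB11 (0.63) were highest. Of 76 tested mitochondrial ribosomal proteins, 35 rose and 6 fell (median 0.21), with 22 higher in the fit of all 12 libraries. The largest fall was that of MRPL42 (-1.06). Of the 13 mitochondrially encoded mRNAs none rose and 3 fell, namely MT-CYB (-0.46), MT-ATP6 (-0.34) and MT-ND6 (-0.30). MT-CYB, which encodes cytochrome b, measured 3907, 5984 and 5421 CPM with vehicle and 3229, 3731 and 4192 CPM with DOX. The vehicle 1 library was lower than the other vehicle libraries and below the DOX 3 library. The count depended on this library and on the fit, with 10 lower without vehicle replicate 1, 1 without vehicle replicate 3 or DOX replicate 1, 7 with a replicate block and none with DESeq2 or in the fit of all 12 libraries. Of 35 sterol and fatty acid genes tested, 14 rose and 6 fell (median 0.15), with 8 higher without DOX replicate 2 or with total-count scaling and 6 in the fit of all 12 libraries. The cholesterol exporter ABCA1 was highest (1.29) and the desaturase FADS1 lowest (-0.97).

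**Figure D5:**
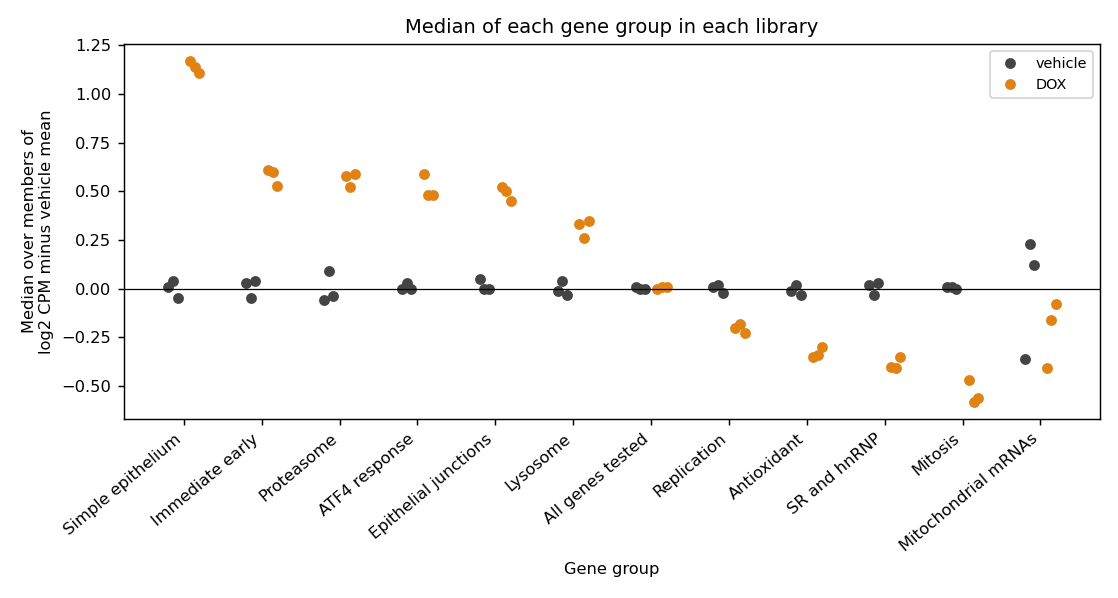
Median over the members of 11 gene groups, and over all genes tested, of log2 CPM minus the vehicle mean of each gene (vertical axis), in each vehicle (grey) and DOX (orange) library. The DOX libraries lie apart from the vehicle libraries for each group but the mitochondrial mRNAs, for which the vehicle libraries run from -0.36 to 0.23, and all genes tested, for which all values are close to 0.

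Immune and inflammatory genes gave smaller numbers. Of 27 interferon-stimulated genes tested, 12 fell and 4 rose (median -0.13). IFIT1, an antiviral RNA-binding protein, went from 12.2, 14.7 and 14.1 CPM to 3.57, 4.44 and 4.97 CPM (-1.65), with IFIT2 (-1.22), IFIT3 (-0.94) and OASL (-1.35) lower too. The sensor gene IFIH1 rose (0.76). Of 17 tested genes of MHC class I presentation, 2 rose and 3 fell (median 0.03), and B2M rose by 0.33. NF-kB genes and cytokines had 8 higher, or 5 without DOX replicate 2, and 8 lower of 29 tested (5 and 2 in the fit of all 12 libraries). In all, 55.2% were called, near the 51.5% of all genes. The cytokine CSF1 was lowest (-1.15), with the feedback inhibitor NFKBIA at -0.55 and CXCL8 at -0.38. Among 14 genes of the glucocorticoid response, 7 rose and 3 fell, with 4 higher in the fit of all 12 libraries. SGK1, a kinase of ion transport, went from 6.42, 8.76 and 9.32 CPM to 36.6, 29.8 and 32.8 CPM (2.02), and the metallothioneins MT2A (1.54) and MT1X (1.33) rose, while the chaperone FKBP5 fell (-0.76). Of 16 BCL2 family genes tested, 6 rose and none fell, with 2 called lower without vehicle replicate 2, the survival genes MCL1 (-0.08 with all libraries) and BCL2 (-0.51). BCL2A1 went from 0.688, 1.52 and 1.35 CPM to 9.11, 9.09 and 8.51 CPM, and the death genes BIK (1.12) and BAK1 (0.56) rose.

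Among the partners of MYC, which dimerises with MAX, the antagonist MXD1 went from 11.3, 11.2 and 12.4 CPM to 36.7, 35.9 and 36.1 CPM (log2 fold change 1.63 ± 0.09, adjusted p = 6.46e-11), and MAX (0.49) and MYC rose. MYCL (-1.04) and MXD3 (-0.84) fell. Nucleolar genes, many of which MYC binds, were balanced, with 7 of 30 higher and 7 lower (median 0.02). In all, 46.7% were called, beside 51.5% of all genes. RRP12 was highest (0.53) and the telomerase and pseudouridine synthase gene DKC1 was among the lowest (-0.30). Of 11 tested stem cell genes, 7 rose (2 in the fit of all 12 libraries), among them SOX9 (0.85) and CD44 (0.30), and 3 fell, namely BMI1, the transporter ABCG2 (-0.81) and ZFP42 (-0.78), the last of these not called without vehicle replicate 1 or 2 or DOX replicate 1 or 2. Among noncoding RNAs, TUG1 fell (-0.83) and DANCR rose (0.60). TXNIP, an arrestin that binds thioredoxin, rose (0.86).

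Some genes moved far from the group to which they belong. The tryptophanyl-tRNA synthetase gene WARS1 (-1.34) fell, while AARS1, GARS1, EPRS1 and SARS1, chosen here for comparison after their values were seen, rose by 0.66, 0.54, 0.46 and 0.43. PSMB5 (-1.28) fell among rising proteasome subunits, MRPL42 (-1.06) among mitochondrial ribosomal proteins, and EGR1 (-1.79) among immediate early genes. PGAM1 (-1.57) was the lowest of the glycolysis and hypoxia genes, a group with both directions (median 0.16). ORC3 (0.91) rose among replication genes. For each of WARS1, PSMB5, PGAM1, EGR1 and ORC3, the values of the vehicle and DOX libraries given above do not overlap. These genes were picked for how far they moved, so this is no separate support. The groups did not overlap for EZH2 and DNMT1 either, which were not called. The share of all genes without overlap is not given here. The call of EGR1 was lost in the fit of all 12 libraries.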

How the data were processed

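RNA-seq libraries were made by the authors with a stranded mRNA kit from Trizol-extracted RNA. The deposited values are raw counts of reads per gene, under Ensembl gene identifiers. The submitters' processing notes name CASAVA 1.8.2, STAR 2.7.0, DESeq2 1.24.0 and the build GRCh38.p7, and the counting tool and its use of strand are not given in the sources used here. Symbols, biotypes and positions were joined from GENCODE 44, which matched 56948 of the 58037 identifiers. The 6 DU-145 libraries were analysed, and the 6 of the other line entered 1 alternative only. A minimum of 10 counts in 3 or more libraries was required, TMM factors were computed, and groups were compared with edgeR 4.0.16 (quasi-likelihood F-test, Benjamini-Hochberg adjustment, threshold 0.05). CPM values use TMM library sizes. DESeq2 1.42.0, limma 3.58.1, R 4.3.3, Python 3.11.15, pandas 2.3.3, scipy 1.17.1 and matplotlib 3.10.9 were also used. The fit was tested on simulated counts. The 3 libraries of a group differed by more than sampling noise (chi-square per degree of freedom 3.76 to 11.4) and each was counted as a sample. Replicate numbers did not pair libraries across groups. Gene lists and members were chosen with earlier results of these data known. Genes were named if they were MUC1 or a gene the study followed, if they had the largest changes, smallest p or largest CPM differences, or if they were key or most changed members of a list, with exceptions stated. Promoter windows came from RefSeq (GRCh38.p14), and motifs were searched on both strands. Alternatives were other scalings, filters, tools and samples. Some genes are not reported here.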

Additional observations from a re-analysis of the deposited data

How the results depend on the processing

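No named gene that was called with all 6 libraries or under an alternative reversed its direction. Among named genes not called in either fit, 5 changed sign when 1 library was left out. Leaving out 1 library kept each count of called genes within 1.5 times its value (2944 to 3658 higher, 2956 to 3537 lower, 395 to 435 higher and 574 to 634 lower by 2-fold or more). The fit of all 12 libraries called 2092 genes higher and 2168 lower. Tested against a 2-fold change itself (glmTreat), 130 genes were higher and 148 lower, in place of 410 and 577. Without a filter, 516 rose and 772 fell by 2-fold or more. With a block for the replicate number, 3516 genes were higher and 3408 lower (407 and 570 by 2-fold or more). Libraries with the same number did not deviate together (correlations of 0.127, -0.0912 and 0.0763), so the numbers were not taken as pairs. The log2 fold change of MUC1 was between -4.45 and -4.38 under these alternatives and between -4.50 and -4.31 without 1 library. Of 234 named and called genes, 64 were no longer called in the fit of all 12 libraries and at most 7 in any other alternative, and the cause was not tested. At this depth, genes under 1 CPM were called less often (24.5%) than genes over 100 CPM (62.9%).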
